A study of Mus musculus with 8 samples.

Results

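Glycolysis and the entry of pyruvate into mitochondria were followed through 31 genes of the mouse embryonic fibroblast (MEF) transcriptome, chosen by name and grouped by pathway step. They run from glucose uptake to lactate dehydrogenase, and on to pyruvate dehydrogenase, its kinases and the mitochondrial pyruvate carrier. Their symbols matched 32 of the 54838 gene rows of the deposited tables, because Aldoa has a second row. All 31 genes passed the filter on low counts in both comparisons. MEFs are connective tissue cells taken from mouse embryos.

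Polyadenylated RNA was sequenced in 8 libraries, which fall into 4 groups of 2. In n-Sen cells, senescence was induced with nutlin3a, a compound that stabilises p53 by blocking MDM2. RO3306, an inhibitor of CDK1, arrested these cells in G2 before nutlin3a was given for 48 h. BI-2536, an inhibitor of PLK1, was added at 100 nM for the next 14 days to remove cells that still divided. Proliferating cells are labelled as controls, and none of these agents is recorded for them. The n-Sen alkaline medium and n-Sen control medium groups are n-Sen cells that spent 24 h in buffered DMEM (HEPES), set to an alkaline pH in the one and given as the control in the other. All groups grew in 5% CO2 and in 3 to 5% O2, so the low oxygen was shared by every group. Whether the n-Sen group without a named medium was also moved to buffered medium is not stated. The pH values, the genotype of the cells and the number of embryos are not given in the labels used here. The labels do not state separate cultures either, so p-values measure only the spread between these libraries, which may be technical. RO3306, nutlin3a, BI-2536 and time in culture cannot be told apart from senescence in the first comparison.

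Glycolysis splits glucose into pyruvate in the cytosol and gains ATP and NADH on the way. Lactate dehydrogenase turns pyruvate into lactate and restores NAD, and the lactate leaves the cell together with a proton, which links the pathway to cellular pH. Alternatively, the pyruvate carrier takes pyruvate into mitochondria, where pyruvate dehydrogenase makes acetyl-CoA unless its kinases switch it off. Many steps have several isoenzymes that differ in tissue and regulation. In fibroblasts, much of the pathway is known to be under the control of MYC and of the hypoxia-inducible factors (HIF).

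Total counts ran from 40608517 to 54183060 per library. The members took 0.697% and 0.712% of all counts in n-Sen libraries, against 0.935% and 0.896% in proliferating ones. Their shares were 0.693% and 0.680% in alkaline medium, against 0.620% and 0.618% in control medium. These shares count only the members' own rows and leave out near-identical copies elsewhere in the genome. For Gapdh the own row held between 5.63% and 5.82% of the counts of gene and copies. All 10 fibroblast markers were detected in every group, with a summed level of 18204 and 18167 CPM (counts per 1000000 counts of the scaled library) in n-Sen and 11886 and 11728 CPM in proliferating libraries. Of these, 8 passed as higher in n-Sen and 2, Pdgfra and Thy1, as lower. The alkaline libraries stood at 18486 and 18324 CPM on this list and the control-medium libraries at 16009 and 17375 CPM, with 3 markers higher and 7 lower in alkaline medium. The list of 12 macrophage markers summed to 1116 and 1196 CPM in n-Sen libraries, against 53.9 and 49.4 CPM in proliferating ones, and all 12 passed the test as higher. In alkaline medium it summed to 986 and 980 CPM, against 1122 and 1062 CPM in control medium, and 7 of the 12 passed as lower. The 7 epithelial markers summed to 5.23 and 4.93 CPM in n-Sen libraries, against 72.3 and 65.6 CPM in proliferating ones, with Krt8, Krt18 and Krt19 lower and Cdh1 higher, and with Epcam and Krt8 at 0 in n-Sen. The 6 endothelial markers summed to 3.63 and 3.18 CPM in n-Sen libraries, against 25.8 and 22.2 CPM in proliferating ones, and the 6 adipocyte markers to 11.2 and 12.1 CPM in n-Sen libraries, against 19.5 and 19.6 CPM in proliferating ones, with 1 lower in each list. In alkaline medium the epithelial list summed to 12.2 and 12.1 CPM, against 6.84 and 5.98 CPM in control medium, with 1 marker, Cldn4, higher. The part of these marker lists in the results below was not tested. In bulk RNA, fewer cells of a type and less RNA per cell cannot be told apart.

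The stretch before a gene's start was searched for ACGTG, the letters at the core of many HIF response elements, because HIF is a known regulator of the pathway. Windows of 250 bases before to 50 after each RefSeq start were available for 29 of the 31 members, 46 windows in all, on GRCm38.p6, the build also called mm10. ACGTG was read on both strands, so that CACGT counts as well, and the E-box CACGTG, bound by MYC with MAX, holds it on either strand. It occurred in 19 of the 46 windows (41.3%), against 19.6% of 32851 windows of all genes. By gene, 15 of the 29 held it in at least 1 window, and no share by gene was taken over all genes. Windows of the same gene can overlap, as for Aldoa, so a stretch can be counted more than once. The sister motif GCGTG occurred in 56.5% of the members' windows, against 32.4% of all windows, and CACGTG in 10.9% against 7.2%. These shares are descriptions of letters, not of binding. The 4 windows shown are those of Slc2a1 and Hk2, the glucose transporter and hexokinase genes with the largest increases in alkaline medium, of Ldha, and of Bpgm, which has no such stretch and had the second largest increase of the members in n-Sen. Capitals mark each ACGTG or CACGT stretch. The windows lie at chr4:119108495-119108794 on the plus strand (Slc2a1), chr6:82774405-82774704 on the minus strand (Hk2), chr7:46845554-46845853 on the plus strand (Ldha, the first of its 2 windows) and chr6:34476106-34476405 on the plus strand (Bpgm).
Slc2a1: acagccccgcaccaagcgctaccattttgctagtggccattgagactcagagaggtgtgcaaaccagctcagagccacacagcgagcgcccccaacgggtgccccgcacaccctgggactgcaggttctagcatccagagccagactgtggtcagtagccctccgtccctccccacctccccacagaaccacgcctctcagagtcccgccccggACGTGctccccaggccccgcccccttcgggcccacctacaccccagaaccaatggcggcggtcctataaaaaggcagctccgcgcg
Hk2: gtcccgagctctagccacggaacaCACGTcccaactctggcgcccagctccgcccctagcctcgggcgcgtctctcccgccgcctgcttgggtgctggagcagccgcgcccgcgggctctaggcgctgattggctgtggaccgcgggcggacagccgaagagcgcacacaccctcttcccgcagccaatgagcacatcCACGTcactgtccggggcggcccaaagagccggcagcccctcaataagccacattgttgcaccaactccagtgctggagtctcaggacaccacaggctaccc
Ldha: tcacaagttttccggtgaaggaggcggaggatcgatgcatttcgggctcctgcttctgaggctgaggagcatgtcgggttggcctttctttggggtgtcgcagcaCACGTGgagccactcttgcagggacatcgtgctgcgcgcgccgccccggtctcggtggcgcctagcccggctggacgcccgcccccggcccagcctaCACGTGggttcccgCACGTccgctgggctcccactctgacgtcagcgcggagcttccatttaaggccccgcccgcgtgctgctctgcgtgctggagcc
Bpgm: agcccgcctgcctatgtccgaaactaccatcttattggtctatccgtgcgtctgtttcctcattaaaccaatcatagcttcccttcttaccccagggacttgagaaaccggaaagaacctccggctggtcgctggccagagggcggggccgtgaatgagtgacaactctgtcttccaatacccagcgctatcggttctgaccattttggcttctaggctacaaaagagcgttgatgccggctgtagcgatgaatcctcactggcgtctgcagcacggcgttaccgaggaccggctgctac

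The Slc2a1 window held 1 such stretch and the Hk2 window 2, which both read CACGT on the printed strand. The Ldha window held 3 stretches, among them a pair of complete CACGTG E-boxes. The other genes with a CACGTG were Pdk2, Pfkfb2, Pfkfb3 and Pfkm.

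The first comparison asks how transcripts of the pathway differ between n-Sen and proliferating cells. Eno1, Gapdh, Ldha, Pgk1 and Tpi1, of the chain from triose phosphates to lactate, were at 0.61 to 0.70 of their proliferating levels in n-Sen, while Pkm of the same chain was at 0.88 and Pgam1 did not pass. Bpgm, Eno2, Ldhb, Pdk1, Pdk2, Pdk4, Hk1 and Pfkm were higher, so that members moved both ways within most steps. Of the 31 members, 13 rose, 13 fell and 5 did not pass at an adjusted p under 0.05. That is 83.9% of the members, beside 67.1% of all 19264 genes tested in this comparison, of which 34% were higher and 33.1% lower. The libraries of both groups did not overlap for 30 members (96.8%), beside 83.4% of all genes. The members were well expressed, with a median level at percentile 72.8 of the genes tested. The part of expression level in these shares was not tested. Changes of at least 1 on the log2 scale were found for 4 members (12.9%), beside 30.3% of all genes. The median log2 fold change was 0.19 over the members and 0.00 over all genes.

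**Figure D1:**
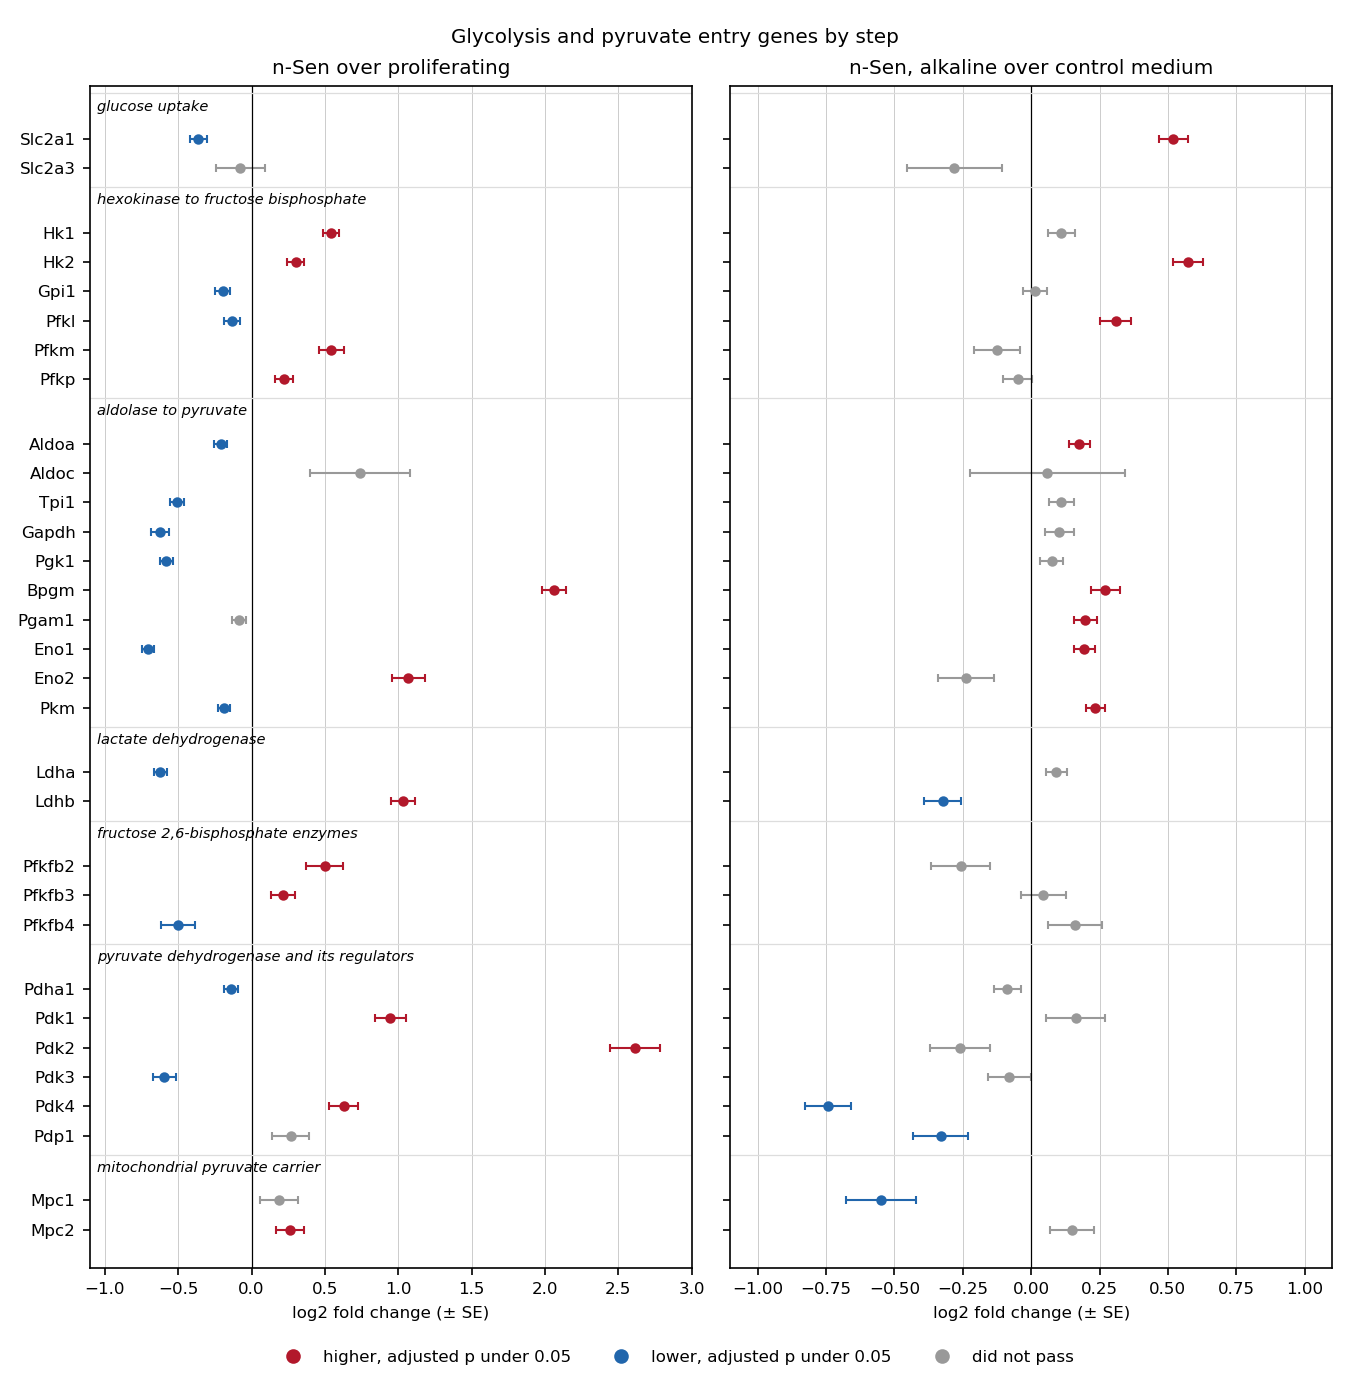
Log2 fold change of each of the 31 genes (point, with the SE of edgeR's quasi-likelihood fit as a bar) by pathway step, in n-Sen over proliferating libraries (left) and in n-Sen cells in alkaline over control medium (right, on a narrower scale). On the left Pdk2 (2.61) and Bpgm (2.06) stand furthest to the right and Eno1 (-0.71) furthest to the left, and on the right Hk2 (0.57) and Slc2a1 (0.52) are the highest and Pdk4 (-0.74) the lowest.

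At the uptake step, Slc2a1, which encodes the widespread glucose transporter GLUT1 (chromosome 4, 119108711 to 119137983), was at 86.3 and 85.3 CPM in n-Sen libraries, against 115 and 106 CPM in proliferating ones. Both n-Sen libraries lay below both proliferating ones, and the log2 fold change was -0.36 ± 0.060 (adjusted p = 3.96e-05). Slc2a3, the high-affinity transporter GLUT3 of neurons, was between 4.44 and 4.92 CPM in all 4 libraries and did not pass (adjusted p = 0.711). Per kb of merged exon, Slc2a1 supplied 97.4% ± 0.142 of the pair's counts in n-Sen and 97.9% ± 0.102 in proliferating cells (SD, n = 2 each).

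Between glucose and fructose bisphosphate 4 members rose and 2 fell. Hexokinase traps glucose in the cell as glucose 6-phosphate. Hk1, its housekeeping form, was at 144 and 145 CPM in n-Sen libraries, against 102 and 97.4 CPM in proliferating ones (log2 fold change 0.54 ± 0.055, adjusted p = 1.33e-07). Hk2, the inducible form (chromosome 6, 82725025 to 82774454), stood at 93.3 and 92.9 CPM in n-Sen libraries, against 74.9 and 76.2 CPM in proliferating ones (0.30 ± 0.058, adjusted p = 0.000207). Neither gene's groups overlapped. Hk3, a hexokinase of blood cells that is not a member, was at 7.41 and 7.30 CPM in n-Sen libraries, against 0.194 and 0.508 CPM in proliferating ones (4.33 ± 0.285, adjusted p = 3.60e-10), beside the higher macrophage markers given above. Of the hexokinase counts per kb, Hk2 held 45.1% ± 0.157 in n-Sen and 51.8% ± 1.01 in proliferating cells, and Hk3 held 5.78% ± 0.059 in n-Sen and 0.391% ± 0.249 in proliferating cells (SD, n = 2 each).

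Phosphofructokinase makes the first committed step of glycolysis. Pfkm, its muscle form, was at 35.8 and 35.0 CPM in n-Sen libraries, against 25.8 and 22.8 CPM in proliferating ones (log2 fold change 0.54 ± 0.087, adjusted p = 2.76e-05). Pfkp, the platelet form, rose by 0.22 ± 0.061 on that scale (adjusted p = 0.00388). Pfkl, the liver form, was at 106 CPM in both n-Sen libraries, against 116 and 117 CPM in proliferating ones (-0.13 ± 0.055, adjusted p = 0.038). Its call was not kept by 7 of 10 alternatives, including without n-Sen replicate 1 (adjusted p = 0.197), without n-Sen replicate 2 (0.166) and without proliferating replicate 1 (0.0593). Pfkl made up 49.4% ± 0.567 of the phosphofructokinase counts per kb in n-Sen and 58.9% ± 1.46 in proliferating cells, while Pfkm made up 32.9% ± 0.269 in n-Sen and 24.6% ± 1.65 in proliferating cells. In counts not divided by length Pfkm made up 16.2% in n-Sen and 11.8% in proliferating cells. Pfkp then made up 35.1% in n-Sen and 31.8% in proliferating cells, above Pfkm in both. The 12 muscle markers summed to 181 and 203 CPM in n-Sen libraries and 132 and 115 CPM in proliferating ones. Of the 8 tested, Acta1, Des, Myh1 and Myh2 passed as higher and Myh3 and Tnnt3 as lower in n-Sen. Acta1 averaged 93.1 CPM in n-Sen and 60.6 CPM in proliferating cells, and Des 95.5 CPM in n-Sen and 59.5 CPM in proliferating cells. Myog and Myod1 were at 0 in n-Sen and at 0.21 and 0.11 CPM in proliferating cells. The part of these markers in the Pfkm result was not tested. Gpi1, which converts glucose phosphate to fructose phosphate and overlaps Gm26762 on the opposite strand over 11.5% of its exon bases, was lower by a log2 fold change of -0.20 ± 0.051 (adjusted p = 0.00248). Without n-Sen replicate 1 it did not pass (adjusted p = 0.0585).

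From aldolase to pyruvate 6 of 10 members fell, and 2 rose. Eno1, the common enolase (chromosome 4, 150236721 to 150248879), was at 1144 and 1187 CPM in n-Sen libraries, against 1945 and 1859 CPM in proliferating ones (log2 fold change -0.71 ± 0.043, adjusted p = 1.13e-10). Pgk1, whose enzyme makes ATP from bisphosphoglycerate, was at 477 and 471 CPM in n-Sen libraries, against 731 and 685 CPM in proliferating ones (-0.58 ± 0.047, adjusted p = 6.22e-09). Tpi1, the triose phosphate isomerase, was at 274 CPM in both n-Sen libraries, against 397 and 382 CPM in proliferating ones (-0.51 ± 0.048, adjusted p = 4.49e-08). In each of the 3 genes every n-Sen library lay well below every proliferating one. Aldoa, the main aldolase, and Pkm, which encodes the muscle and embryonic forms of pyruvate kinase, fell less, by 0.21 ± 0.047 and 0.19 ± 0.043 on the log2 scale (adjusted p = 0.000699 and 0.000904). Pkm had 400 CPM per kb in n-Sen and 455 CPM per kb in proliferating cells, the highest level per kb of all members' own rows in both groups. Of its exon bases, 15.3% overlap Gm49759 on the same strand, so reads may be split between these genes.

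Gapdh, the glyceraldehyde phosphate dehydrogenase often used as a loading control (chromosome 6, 125161715 to 125166467), was at 92.9 and 101 CPM in n-Sen libraries, against 156 and 143 CPM in proliferating ones (log2 fold change -0.63 ± 0.062, adjusted p = 7.85e-08). Its own row held between 5.63% and 5.82% of the counts of Gapdh and its 103 near-identical copies in the genome, so its level per kb is not comparable with that of other members. With the copies added, Gapdh stood at 1647 and 1741 CPM in n-Sen libraries, against 2680 and 2520 CPM in proliferating ones (-0.62 ± 0.044, adjusted p = 1.16e-09). Because the own row's share was nearly constant over the libraries, the difference with the copies had to be close to that without them. The second value is therefore no separate support for the first. How reads that map to several places were counted is not given in the sources used here. Eno1 had 4 such copies and kept between 89.2% and 90.5% of the counts in its own row, and Pgam1 had 2 and kept between 93.8% and 94.5%. Pgam1, the phosphoglycerate mutase, did not pass (-0.08 ± 0.046, adjusted p = 0.118), although it passed as lower without proliferating replicate 2 (adjusted p = 0.0282). The second row of Aldoa (chromosome 7, 126800790 to 126809108) had 0 counts in both n-Sen libraries, against 34 and 32 counts in proliferating ones, at least 25-fold lower when 3 counts over the group are taken as the floor. It had 0 counts in all alkaline and control-medium libraries.

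The 2 members that rose at these steps are minor forms or side branches. Bpgm, whose enzyme makes the bisphosphoglycerate that lowers the oxygen affinity of haemoglobin in red cells (chromosome 6, 34476207 to 34505613), was at 59.3 and 57.6 CPM in n-Sen libraries, against 14.5 and 13.5 CPM in proliferating ones. The groups were far apart, and the log2 fold change was 2.06 ± 0.082 (adjusted p = 4.10e-13). Erythroid markers summed to 0.43 and 0.28 CPM in n-Sen and to 0.39 and 0.33 CPM in proliferating libraries, with the globin genes Hba-a1, Hba-a2, Hbb-bs and Hbb-bt at 0 in all of them. Eno2, the enolase typical of neurons, was at 19.0 and 18.4 CPM in n-Sen libraries, against 9.34 and 8.54 CPM in proliferating ones (1.07 ± 0.113, adjusted p = 1.90e-07). Neural markers summed to 125 and 133 CPM in n-Sen and to 46.9 and 46.4 CPM in proliferating libraries, carried by Tubb3, Stmn2 and Map2, while Snap25 and Rbfox3 were near 0 in n-Sen and at 0 in proliferating cells. The part of these markers in the Eno2 result was not tested. Eno2 remained a small part of enolase, at 1.72% ± 0.077 of the counts per kb in n-Sen and 0.493% ± 0.015 in proliferating cells (SD, n = 2 each). Aldoc, the aldolase of brain, was at 1.82 and 2.72 CPM in n-Sen libraries, against 1.92 and 0.854 CPM in proliferating ones, which overlap (0.74 ± 0.339, adjusted p = 0.0647). It passed as higher without n-Sen replicate 1 (adjusted p = 0.018) and without proliferating replicate 1 (adjusted p = 0.000326).

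**Figure D2:**
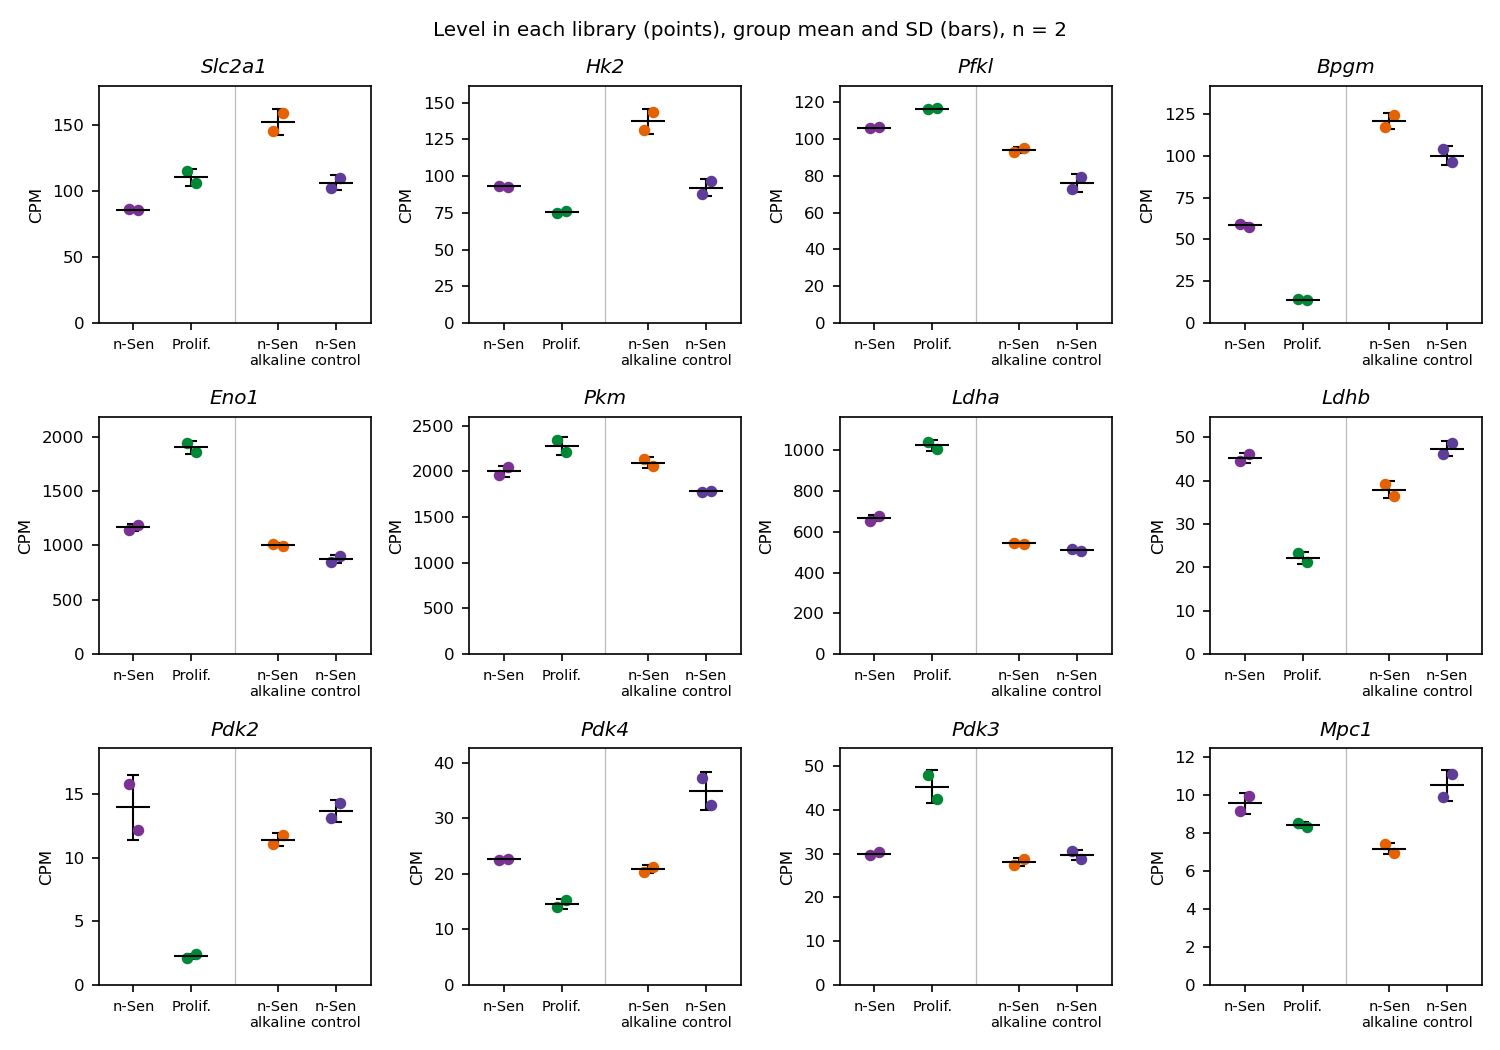
Level in CPM (vertical axes, from 0) of 12 members in each library (points), with the group mean and SD (bars, n = 2), for n-Sen and proliferating cells left of the grey line and n-Sen cells in alkaline and control medium right of it. Each side was scaled within its own comparison. Bpgm and Pdk2 are several times higher in n-Sen than in proliferating cells, Eno1 and Ldha are lower, and Slc2a1 and Hk2 stand above control medium in both alkaline libraries while Pdk4 and Mpc1 stand below it.

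At lactate dehydrogenase the isoforms moved in opposite directions. Ldha, whose subunit favours the making of lactate (chromosome 7, 46841475 to 46855627), was at 655 and 677 CPM in n-Sen libraries, against 1043 and 1007 CPM in proliferating ones (log2 fold change -0.62 ± 0.044, adjusted p = 1.01e-09). Ldhb, whose subunit favours the use of lactate (chromosome 6, 142490249 to 142507957), was at 44.5 and 46.1 CPM in n-Sen libraries, against 23.2 and 21.1 CPM in proliferating ones (1.03 ± 0.082, adjusted p = 5.00e-09). Neither pair of groups overlapped. The Ldhb share of the pair's counts per kb was 12.5% ± 0.031 in n-Sen and 4.36% ± 0.175 in proliferating cells (SD, n = 2 each), so Ldha stayed the main form in both.

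The PFKFB enzymes make and remove fructose bisphosphate of the regulatory kind, the strongest activator of phosphofructokinase. Pfkfb2, of which 17.4% of exon bases overlap Gm29427 on the same strand, was at 17.0 and 15.0 CPM in n-Sen libraries, against 10.2 and 12.4 CPM in proliferating ones (log2 fold change 0.50 ± 0.123, adjusted p = 0.00178). Pfkfb4 was at 10.6 and 12.0 CPM in n-Sen libraries, against 15.8 and 16.3 CPM in proliferating ones (-0.50 ± 0.113, adjusted p = 0.000838). Pfkfb3, the form whose kinase activity most exceeds its phosphatase activity, was at 34.4 and 33.2 CPM in n-Sen libraries, against 27.8 and 30.5 CPM in proliferating ones (0.21 ± 0.083, adjusted p = 0.0307). The Pfkfb3 call was lost without n-Sen replicate 1 (adjusted p = 0.137), without n-Sen replicate 2 (0.0566), without proliferating replicate 1 (0.151) and with DESeq2 (0.0686). Pfkfb3 held the largest share of the 3 genes per kb in both groups, 49.8% ± 0.634 in n-Sen and 44.3% ± 0.148 in proliferating cells.

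The pyruvate dehydrogenase kinases, which phosphorylate and inactivate the complex, included the largest change among the members. Pdk2 (chromosome 11, 95026258 to 95041354) was at 15.7 and 12.2 CPM in n-Sen libraries, against 2.13 and 2.4 CPM in proliferating ones, a log2 fold change of 2.61 ± 0.169 (adjusted p = 2.95e-10). Pdk1, a known HIF target, was at 25.0 and 24.6 CPM in n-Sen libraries, against 11.8 and 13.8 CPM in proliferating ones (0.95 ± 0.104, adjusted p = 3.41e-07). Pdk4, the form raised in fasting (chromosome 6, 5483351 to 5496309), was at 22.5 and 22.7 CPM in n-Sen libraries, against 14.0 and 15.3 CPM in proliferating ones (0.63 ± 0.099, adjusted p = 2.43e-05). These 3 kinases rose, with no overlap between groups. The fourth, Pdk3, went the other way and was at 29.6 and 30.3 CPM in n-Sen libraries, against 47.9 and 42.6 CPM in proliferating ones (-0.59 ± 0.081, adjusted p = 4.48e-06). Per kb, Pdk3 made up 45.5% ± 1.83 of kinase counts in n-Sen and 73.0% ± 3.19 in proliferating cells, while Pdk2 made up 17.1% ± 2.72 in n-Sen and 2.97% ± 0.362 in proliferating cells (SD, n = 2 each). The order per kb was Pdk3, Pdk4, Pdk2 and Pdk1 in n-Sen, against Pdk3, Pdk4, Pdk1 and Pdk2 in proliferating cells. The order in n-Sen rests on exon length. In counts not divided by length Pdk1 made up 27.1%, Pdk4 24.8% and Pdk2 15.2% in n-Sen. In proliferating cells Pdk1 made up 17.1% and Pdk2 3.02% of such counts, so Pdk1 stood above Pdk2 in both groups.

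Pdha1, the catalytic subunit of the complex, was at 207 and 216 CPM in n-Sen libraries, against 234 and 232 CPM in proliferating ones (log2 fold change -0.14 ± 0.050, adjusted p = 0.0213). It did not pass without n-Sen replicate 1 (adjusted p = 0.247), without n-Sen replicate 2 (0.0552) or with no filter on low counts (0.0555). Of its exon bases, 16.1% overlap Map3k15 on the opposite strand, and the strand setting of the counting is not given in the sources used here. Pdp1, a phosphatase that reactivates the complex, did not pass (0.27 ± 0.129, adjusted p = 0.0784), but passed as higher without proliferating replicate 2 (adjusted p = 0.0146). Of the 6 other genes of the complex, 4 fell and 1 rose. The second phosphatase, Pdp2, was at 6.54 and 7.90 CPM in n-Sen libraries, against 12.7 and 15.3 CPM in proliferating ones (-0.96 ± 0.138, adjusted p = 9.14e-06). The pyruvate carrier is made of Mpc1 and Mpc2. Mpc1 did not pass (0.19 ± 0.130, adjusted p = 0.216). Mpc2 was at 27.6 and 32.0 CPM in n-Sen libraries, against 26.0 and 23.7 CPM in proliferating ones (0.26 ± 0.094, adjusted p = 0.0209), and lost its call without n-Sen replicate 2 (0.268), without proliferating replicate 2 (0.126) and with DESeq2 (0.0554).

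**Figure D3:**
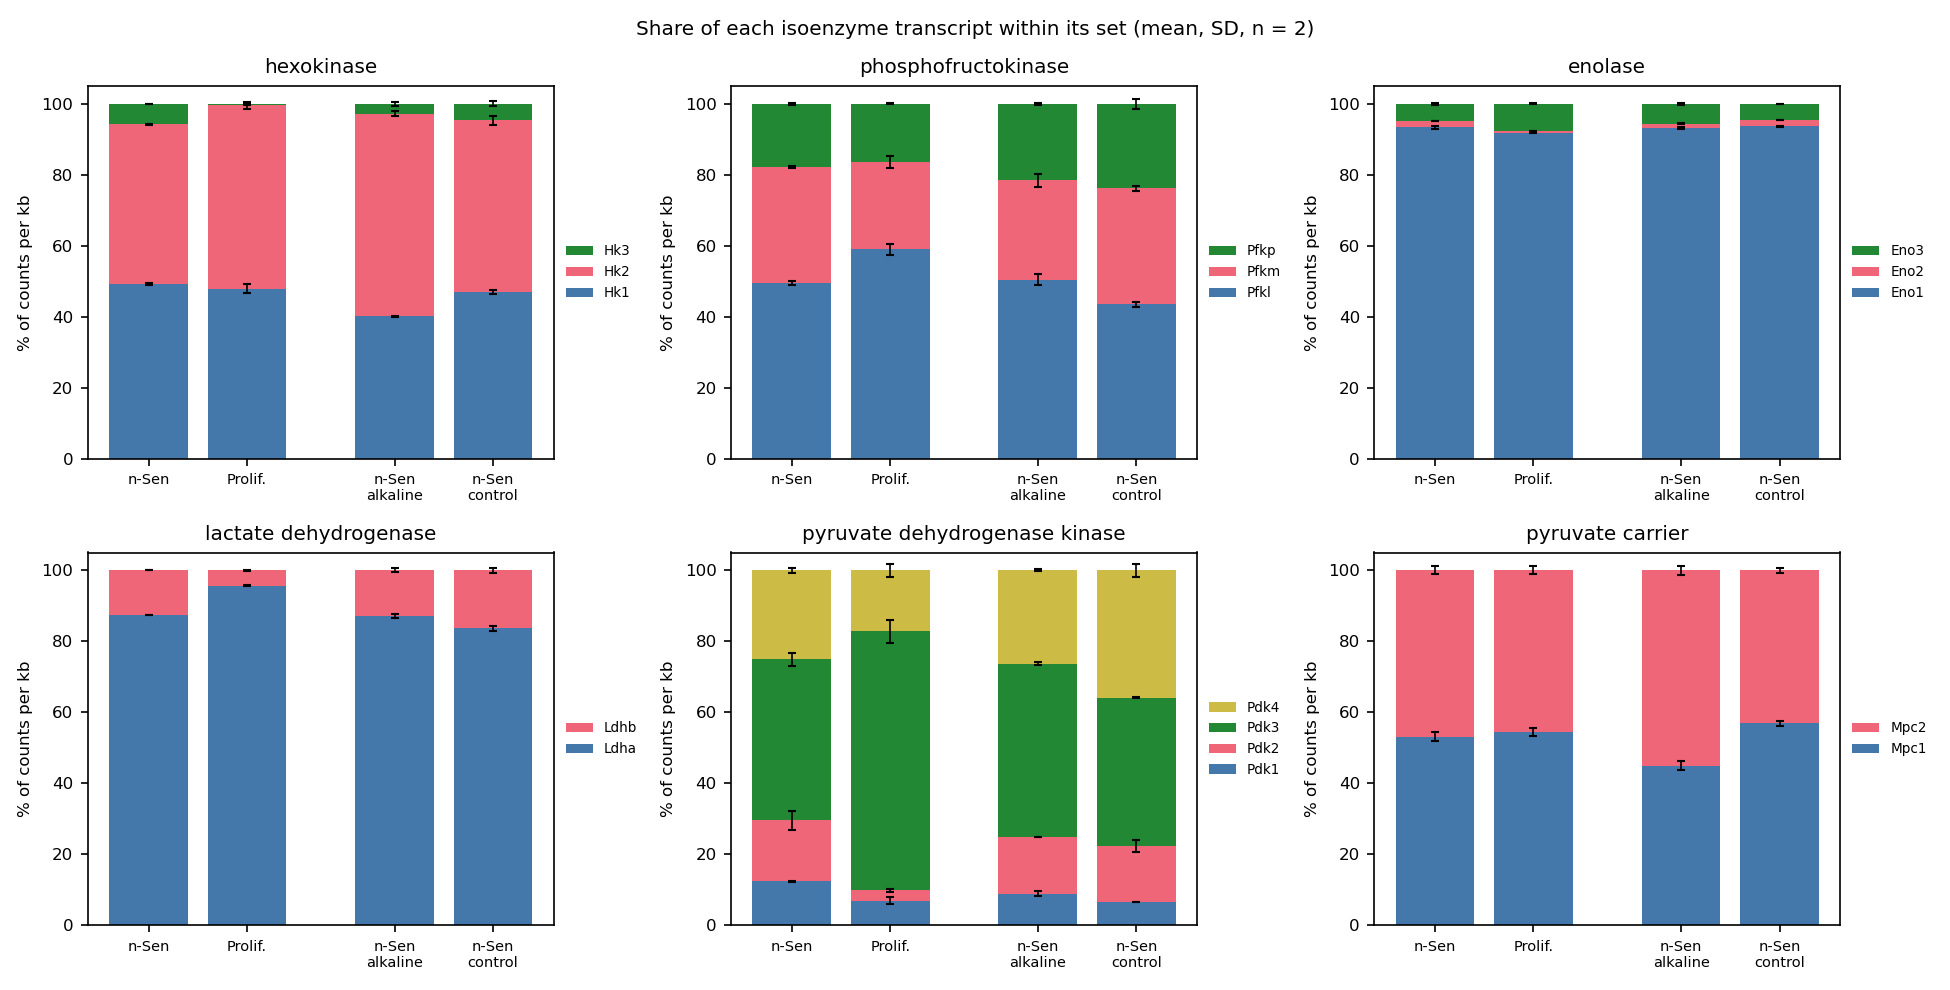
Share of each isoenzyme in the counts per kb of its set (vertical axes, percent, from 0), as stacked group means for n-Sen and proliferating cells (left pair) and n-Sen cells in alkaline and control medium (right pair), with the SD of each segment's share drawn at its top (n = 2). The Pdk3 segment is 45.5% in n-Sen and 73.0% in proliferating cells, the Ldhb segment is 12.5% in n-Sen and 4.36% in proliferating cells, and the Hk2 segment is 57.2% in alkaline and 48.5% in control medium.

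The second comparison asks what alkaline medium changes in n-Sen cells, in a series that sets out to follow intracellular acidification. Transcripts of the glucose transporter gene Slc2a1 and of the hexokinase gene Hk2 rose by factors of 1.43 and 1.49, the largest increases among the members, while Slc2a3 and Hk1 at the same steps did not pass. Smaller increases were spread along the chain at Pfkl, Aldoa, Bpgm, Pgam1, Eno1 and Pkm. Ldhb and 3 genes of mitochondrial pyruvate use, Pdk4, Pdp1 and Mpc1, fell. Of the 31 members, 8 rose, 4 fell and 19 did not pass. That is 38.7% of the members, beside 20% of the 19129 genes tested, of which 9.58% were higher and 10.4% lower. The libraries of both media did not overlap for 25 members (80.6%), beside 56.8% of all genes. Here the median level of the members was at percentile 86.8 of the genes tested, and its part in these shares was not tested. No member changed by 1 or more on the log2 scale, beside 2.76% of all genes, and the median log2 fold change was 0.075 over the members and -0.01 over all genes.

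Slc2a1 was at 145 and 159 CPM in alkaline medium, against 102 and 110 CPM in control medium (log2 fold change 0.52 ± 0.054, adjusted p = 1.29e-07). Hk2 was at 131 and 143 CPM in alkaline medium, against 88.0 and 96.5 CPM in control medium (0.57 ± 0.056, adjusted p = 4.72e-08). For both genes the lower alkaline library lay far above the higher control one. Hk1 was at 133 and 142 CPM in alkaline medium, against 125 and 130 CPM in control medium, and did not pass (0.11 ± 0.050, adjusted p = 0.132). Per kb, Hk2 made up 57.2% ± 0.668 of the hexokinase counts in alkaline and 48.5% ± 1.23 in control medium, and Hk1 made up 40.1% ± 0.141 in alkaline and 46.9% ± 0.592 in control medium (SD, n = 2 each). This order rests on exon length: in counts not divided by length Hk2 made up 49.2% and Hk1 49.3% in alkaline medium, and Hk2 made up 40.9% and Hk1 56.6% in control medium. Slc2a3 was at 3.90 and 5.15 CPM in alkaline medium, against 4.92 and 6.10 CPM in control medium, which overlap (adjusted p = 0.302).

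Pfkl was at 93.0 and 95.3 CPM in alkaline medium, against 72.7 and 79.3 CPM in control medium (log2 fold change 0.31 ± 0.056, adjusted p = 0.000234). The other phosphofructokinase genes did not pass, with log2 fold changes of -0.13 ± 0.084 for Pfkm and -0.05 ± 0.053 for Pfkp. The Pfkl share of the 3 genes per kb was 50.4% ± 1.52 in alkaline and 43.5% ± 0.701 in control medium. Gpi1 was at 243 and 249 CPM in alkaline medium, against 236 and 250 CPM in control medium, and the ranges overlap (0.01 ± 0.045, adjusted p = 0.881). None of the 3 PFKFB genes passed, at adjusted p of 0.101 for Pfkfb2, 0.791 for Pfkfb3 and 0.293 for Pfkfb4.

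From aldolase to pyruvate 5 of 10 members rose, none fell and 5 did not pass. Pkm was at 2136 and 2056 CPM in alkaline medium, against 1776 and 1788 CPM in control medium (log2 fold change 0.23 ± 0.035, adjusted p = 2.65e-05). Eno1 was at 1017 and 990 CPM in alkaline medium, against 849 and 904 CPM in control medium (0.19 ± 0.040, adjusted p = 0.000831). Bpgm was at 117 and 124 CPM in alkaline medium, against 104 and 96.2 CPM in control medium (0.27 ± 0.053, adjusted p = 0.000547). These increases were a fraction of those of Slc2a1 and Hk2, yet no alkaline library fell among the control ones. Aldoa rose by 0.18 ± 0.038 and Pgam1 by 0.20 ± 0.044 on the log2 scale (adjusted p = 0.00152 and 0.00169). The Pgam1 call was lost without alkaline replicate 1 (adjusted p = 0.0589). Tpi1, Gapdh and Pgk1 had log2 fold changes of 0.11 ± 0.046, 0.10 ± 0.053 and 0.08 ± 0.043 and did not pass (adjusted p = 0.0997, 0.192 and 0.247). Tpi1 passed as higher without control replicate 1 (adjusted p = 0.0198). With its near-identical copies added, an alternative chosen after seeing the data, Gapdh stood at 1625 and 1599 CPM in alkaline medium, against 1459 and 1490 CPM in control medium, and passed (0.13 ± 0.035, adjusted p = 0.0104). Eno2 was at 13 and 13.2 CPM in alkaline medium, against 15.2 and 15.7 CPM in control medium, a gap that did not pass (-0.24 ± 0.101, adjusted p = 0.107).

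Ldha was at 544 and 543 CPM in alkaline medium, against 514 and 505 CPM in control medium, and did not pass in edgeR (log2 fold change 0.09 ± 0.039, adjusted p = 0.108), while DESeq2 called it higher (adjusted p = 0.0414). Ldhb was at 39.3 and 36.6 CPM in alkaline medium, against 46.1 and 48.7 CPM in control medium (-0.32 ± 0.068, adjusted p = 0.00107). The alkaline libraries lay below the control ones without overlap. The Ldhb share of the pair per kb was 12.8% ± 0.551 in alkaline and 16.4% ± 0.698 in control medium (SD, n = 2 each).

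Around pyruvate dehydrogenase, Pdk4 was at 20.4 and 21.3 CPM in alkaline medium, against 37.3 and 32.5 CPM in control medium, the largest decrease among the members (log2 fold change -0.74 ± 0.084, adjusted p = 5.25e-07). Pdk1, Pdk2 and Pdk3 did not pass, at 0.16 ± 0.107, -0.26 ± 0.110 and -0.08 ± 0.077. Pdk4 therefore held 26.4% ± 0.257 of the kinase counts per kb in alkaline and 35.9% ± 1.87 in control medium, and Pdk3 held 48.7% ± 0.428 in alkaline and 42.0% ± 0.23 in control medium. Pdp1 was at 12.8 and 13.8 CPM in alkaline medium, against 16.8 and 16.7 CPM in control medium (-0.33 ± 0.100, adjusted p = 0.0211). That call was lost without alkaline replicate 1 (adjusted p = 0.137), without control replicate 1 (0.0759), without control replicate 2 (0.0593), with DESeq2 (0.0981) and in a fit of all 8 libraries (0.0549). Pdha1 did not pass (-0.09 ± 0.048, adjusted p = 0.237), and none of the 6 other genes of the complex did.

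Mpc1 (chromosome 17, 8282904 to 8297661) was at 7.40 and 6.96 CPM in alkaline medium, against 9.91 and 11.1 CPM in control medium (log2 fold change -0.55 ± 0.127, adjusted p = 0.00289). Both alkaline libraries lay below both control ones. Its own row held between 53.6% and 60.3% of the counts of Mpc1 and its 1 near-identical copy, and 23.1% of its exon bases overlap 4930506C21Rik on the opposite strand. With the copy added, Mpc1 was at 12.4 and 11.8 CPM in alkaline medium, against 18.5 and 18.9 CPM in control medium (-0.63 ± 0.099, adjusted p = 4.57e-05). Mpc2 did not pass (0.15 ± 0.082, adjusted p = 0.23). Per kb, Mpc1 made up 44.9% ± 1.29 of the pair in alkaline and 56.9% ± 0.668 in control medium (SD, n = 2 each). Which gene is the larger rests on exon length. In counts not divided by length Mpc1 made up 18.8% in alkaline and 27.2% in control medium, so Mpc2 was the larger in both.

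The 2 comparisons share no library. Of the members, 9 passed in both, and 7 of them moved in opposite directions (77.8%), beside 1775 of 3067 genes that passed in both (57.9%). Slc2a1, Pfkl, Aldoa, Eno1 and Pkm were lower in n-Sen than in proliferating cells and higher in alkaline than in control medium. Ldhb and Pdk4 were higher in n-Sen than in proliferating cells and lower in alkaline than in control medium. Bpgm and Hk2 were higher in both comparisons. The sizes were unequal, as for Eno1 with a log2 fold change of -0.71 in n-Sen and 0.19 in alkaline medium.

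**Figure D4:**
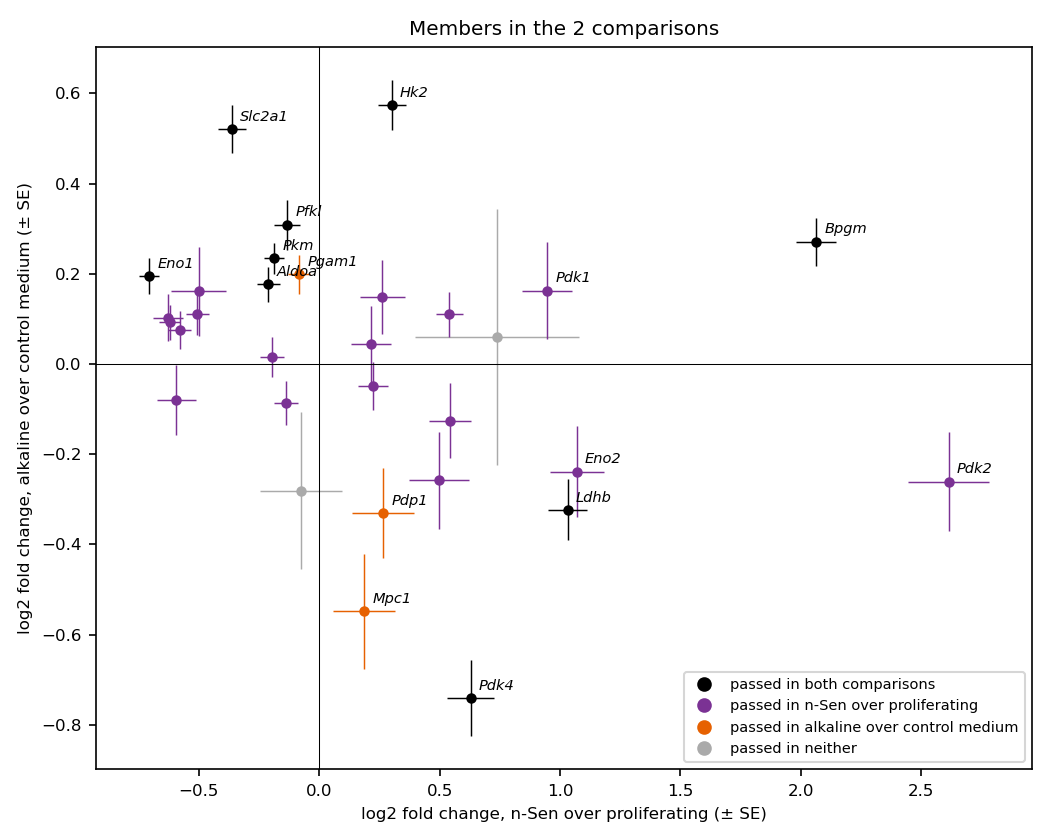
Log2 fold change of each of the 31 genes in n-Sen over proliferating cells (horizontal) against that in n-Sen cells in alkaline over control medium (vertical), with SE as bars and colour for the comparison in which a gene passed. Of the 9 black points, 7 lie at the upper left or lower right, and Hk2 and Bpgm lie in the upper right.

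The control-medium libraries stood apart from the n-Sen libraries of the other table for some members. With all 8 libraries scaled together, Bpgm averaged 101 CPM in control medium and 57.5 CPM in n-Sen, a log2 ratio of 0.82, and Pdk4, at 35.3 CPM in control medium and 22.3 CPM in n-Sen, gave 0.66. Pdk1 averaged 14.1 CPM in control medium and 24.4 CPM in n-Sen, a log2 ratio of -0.79. These differences run between tables and were not tested. The median absolute log2 ratio was 0.20 over the members and 0.13 over all 18484 genes tested in both. On this joint scale the mean of Pdk4 was 21.1 CPM in alkaline medium, and the mean of Slc2a1 was 154 CPM in alkaline and 107 CPM in control medium, against 84.4 CPM in n-Sen and 109 CPM in proliferating cells. Pfkl averaged 95.4 CPM in alkaline and 76.8 CPM in control medium, against 104 CPM in n-Sen and 115 CPM in proliferating cells. Eno1 averaged 1016.5 CPM in alkaline and 886 CPM in control medium, against 1147 CPM in n-Sen and 1884 CPM in proliferating cells. Both genes were thus lower in alkaline medium than in n-Sen, whereas Slc2a1, Aldoa (717 and 704 CPM) and Pkm (2123 and 1968 CPM) were higher. These gaps were not tested either.

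Neighbouring genes and pathways were read from lists, beside 34% of all genes higher and 33.1% lower in n-Sen. Of 15 tested isoforms outside the 31 members, 7 rose and 4 fell in n-Sen, among them Eno3, the muscle enolase, at 20.3 and 18.9 CPM in n-Sen libraries, against 53.0 and 49.3 CPM in proliferating ones (log2 fold change -1.39 ± 0.082, adjusted p = 8.75e-11). In n-Sen against proliferating cells the tricarboxylic acid cycle, which burns the acetyl-CoA, had 10 of 15 genes lower and 1 higher. Citrate synthase, Cs, was at 219 and 211 CPM in n-Sen libraries, against 359 and 352 CPM in proliferating ones (-0.73 ± 0.049, adjusted p = 4.95e-10). The pentose phosphate pathway, which branches off after hexokinase, had 5 of 9 lower and 2 higher, led by its first enzyme, G6pdx, at 54.5 and 54.4 CPM in n-Sen libraries, against 111 and 98.2 CPM in proliferating ones (-0.94 ± 0.068, adjusted p = 1.18e-09). Glycogen metabolism had 5 of 10 higher and 1 lower, among them Pygl, the liver glycogen phosphorylase, with 2.31 ± 0.172 (adjusted p = 1.95e-09). The 4 tested genes of gluconeogenesis rose, with pyruvate carboxylase, Pcx, at 35.5 and 36.8 CPM in n-Sen libraries, against 13.1 and 12.4 CPM in proliferating ones (1.5 ± 0.091, adjusted p = 1.10e-10). The shuttles that carry cytosolic NADH into mitochondria had 4 of 10 genes lower and 1 higher, and Gpd2, the mitochondrial glycerol phosphate dehydrogenase, was at 34.7 and 37.2 CPM in n-Sen libraries, against 80.3 and 80.5 CPM in proliferating ones (-1.16 ± 0.068, adjusted p = 7.11e-11). Of 6 genes of lactate and pyruvate transport across the plasma membrane, 3 rose and 2 fell. Slc16a1, the lactate and proton transporter MCT1, was at 11.4 and 11.7 CPM in n-Sen libraries, against 60.8 and 59.5 CPM in proliferating ones (-2.38 ± 0.082, adjusted p = 5.91e-14).

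In alkaline against control medium these lists stand beside 9.58% of all genes higher and 10.4% lower. Of the 9 pentose phosphate genes 1 fell. Of the other isoforms 2 of 15 rose, and Eno3 was at 20.5 and 18.4 CPM in alkaline medium, against 13.2 and 14.0 CPM in control medium (log2 fold change 0.52 ± 0.099, adjusted p = 0.000482). Glycogen metabolism had 1 of 9 tested genes higher and 3 lower, the shuttles 2 of 10 higher and 1 lower, and gluconeogenesis 1 of 4 lower. Of the 6 transport genes 1 passed, Slc16a3, which encodes the lactate exporter MCT4. It was at 36.3 and 36.5 CPM in alkaline medium, against 22.3 CPM in both control libraries (log2 fold change 0.71 ± 0.076, adjusted p = 2.13e-07). In n-Sen it had been lower than in proliferating cells, at 43.0 and 42.2 CPM in n-Sen libraries, against 79.7 and 69.3 CPM in proliferating ones (-0.81 ± 0.074, adjusted p = 3.36e-08).

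Among 13 tested transcription factors and oxygen sensors of glycolytic genes, 6 rose and 2 fell in n-Sen, beside 34% and 33.1% of all genes. Myc was at 33.3 and 33.9 CPM in n-Sen libraries, against 86.9 and 89.1 CPM in proliferating ones (log2 fold change -1.39 ± 0.066, adjusted p = 4.17e-12). Hif1a was at 245 and 232 CPM in n-Sen libraries, against 146 and 163 CPM in proliferating ones (0.62 ± 0.059, adjusted p = 4.45e-08). Epas1, which encodes HIF-2 alpha, was at 69.3 and 68.2 CPM in n-Sen libraries, against 13.6 and 14.1 CPM in proliferating ones (2.31 ± 0.078, adjusted p = 4.57e-14). The others were the HIF partner Arnt, Max, Mxi1 and Esrra, which rose by 0.24 to 0.80 on the log2 scale, and the oxygen sensor Egln3, which fell (-2.09 ± 0.150, adjusted p = 1.25e-09). In alkaline medium 4 of the 13 rose, Hif1a (0.18 ± 0.045, adjusted p = 0.00436), Egln1 (0.26), Max (0.26) and Mlxip (0.18), and Epas1 fell (-0.61 ± 0.065, adjusted p = 2.18e-07). Over all genes 9.58% were higher and 10.4% lower in alkaline medium. Transcript levels do not show the protein level of HIF, which is set largely by its breakdown.

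Of 13 HIF targets outside glycolysis, 10 rose and 2 fell in n-Sen, beside 34% and 33.1% of all genes. In alkaline medium 6 rose and 1 fell, beside 9.58% and 10.4% of all genes. Vegfa, the vascular growth factor, was at 428 CPM in both alkaline libraries, against 186 and 190 CPM in control medium (log2 fold change 1.19 ± 0.042, adjusted p = 5.06e-15). Adm, the peptide adrenomedullin, was at 5.99 and 5.13 CPM in alkaline medium, against 22.1 and 20.8 CPM in control medium (-1.95 ± 0.115, adjusted p = 1.41e-11). The list therefore held both a larger increase and a larger decrease in alkaline medium than any of the 31 glycolytic and pyruvate genes.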

How the data were processed

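Polyadenylated RNA of 8 MEF libraries was extracted with TRIzol and RNeasy columns and made into strand-marked (dUTP) libraries, per the labels' protocols. The submitters' processing notes name DESeq2 1.34.0, fastp 0.23.2, featureCounts (Subread 2.0.2), HISAT2 2.1.0 and the build mm10. The strand setting, the treatment of reads that map to several places and the annotation release are not given in the sources used here. The authors deposited expected counts (estimates that are not always whole) in 2 tables with 1 comparison each. Between 32.7% and 33.7% of a library's nonzero values were fractional, and values were rounded before testing. No columns of other samples were used.

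Symbols, coordinates and merged exon lengths came from GENCODE vM21 on GRCm38. Each comparison was fitted on its own by edgeR 4.0.16 (R 4.3.3) using its quasi-likelihood test after filterByExpr and TMM scaling, with Benjamini-Hochberg adjustment over all genes tested and a threshold of 0.05. Values are CPM on TMM-scaled library sizes, and log2 fold changes carry an SE. This SE is the absolute log2 fold change divided by the square root of F. Each library had 40608517 counts or more, and each group 2 libraries. The 2 libraries of each group differed by 4.63 to 7.39 per degree of freedom in a chi-square of their counts, so none was counted as a repeat. Shares within an isoenzyme set used counts per kb of merged exon. Near-identical copies were genes with a transcript matching a member's at 95% identity or more over 300 bases or more, outside its locus. Promoter windows came from RefSeq.

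All members are named. Of each list of neighbours, up to 4 genes of smallest p among those called could be named, and any called gene of the transcription factor list. Not every gene that this rule allows is reported here. Members and lists were chosen with earlier results of these data known, and the alternative that adds near-identical copies was chosen after seeing the data. Other alternatives were DESeq2 size factors, DESeq2 1.42.0, no filter, 1 fit of all 8 libraries, a replicate block and leaving out each library. The procedure was tested on simulated counts, in which a small part of the genes, all averaging above 1 CPM, was raised or lowered. In the data 67.1% of genes were called in n-Sen and 20% in alkaline medium. The simulated rates therefore need not hold for the data. For n-Sen against proliferating cells it recovered 70%, 91.8% and 100% of the genes given changes of 1.5-, 2- and 4-fold, and called 7 of 18613 unchanged genes. In the alkaline comparison it recovered 71.2%, 89.4% and 98.4%, and called 4 of 18569 unchanged genes.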

Additional observations from a re-analysis of the deposited data

How the results depend on the processing

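With 2 libraries per group, small differences in the members depend on single libraries. In n-Sen against proliferating cells 21 of 26 called members were called under each of the 10 alternatives, and the exceptions were Gpi1, Mpc2, Pdha1, Pfkfb3 and Pfkl. In alkaline against control medium 10 of 12 were, the exceptions being Pdp1 and Pgam1. No called member changed direction under any alternative. The values that changed sign belong to members that did not pass. In alkaline medium, Gpi1 gave log2 fold changes from -0.025 to 0.057 and Aldoc from -0.126 to 0.273 when single libraries were left out, and the cause was not tested. Members called higher and lower numbered 11 to 14 and 10 to 14 in n-Sen over the alternatives, and 7 to 9 and 3 to 4 in alkaline medium. With the replicate number as a block (replicate block), 14 members were higher and 12 lower in n-Sen, and 8 were higher and 4 lower in alkaline medium. Deviations of same-numbered libraries were uncorrelated over the genes (-0.001 and -0.004), so no shared shift was seen. This cannot exclude that the libraries were paired, which the labels do not state. Depth limits members of a few CPM, as Aldoc and Slc2a3 carry an SE of 0.339 and 0.169 on the log2 scale in n-Sen. Shares within isoenzyme sets rest on exon length: without it 84 of 96 group shares moved by more than 1 SD.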
